A study of Mus musculus with 8 samples.

Results

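The receptors for interleukin-1 and interleukin-18, their accessory and decoy chains, the ligand IL-18 and the IL-18 binding protein were followed in endogenous CD8+ T cells of tumor-treated mice that had been divided by the amount of IL-18Rα on their surface. The members were chosen by name, as the 10 genes *Il18r1*, *Il18rap*, *Il1r1*, *Il1r2*, *Il1rl1*, *Il1rl2*, *Il1rap*, *Sigirr*, *Il18* and *Il18bp*, of 47493 genes with a row in the deposited table. Expression was given as FPKM, the number of sequenced fragments scaled to transcript length and library size. All 10 had a mean of at least 1 FPKM over the 8 libraries and entered the test, so none was lost to the filter on low values. *Il18* passed only through the cells enriched for IL-18Rα, as its mean in the other cells was 0.847 FPKM.

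The libraries came from 4 female C57BL/6 mice that were 6 to 8 weeks old at the start. Each mouse received 200000 B16F10 melanoma cells on day 0, cyclophosphamide at 300 mg/kg on day 3, 2000000 ex vivo primed Pmel-1 T cells carrying the Thy1.1 allele on day 5, IL-2 at 10000 IU a day for 3 days, and the CD4-depleting antibody GK1.5 at 200 μg on days 10, 17 and 24. On day 25 the Thy1.1-negative CD8+ cells of the inguinal lymph nodes and spleen were isolated with magnetic beads and run over a column after labelling of IL-18Rα. The retained cells were the IL-18Rαhi-enriched fraction (4 libraries) and the cells that ran through were the flow-through, which served as control (4 libraries). All treatments were thus common to both fractions, each mouse gave 1 library of each, and no untreated mice were among the samples analysed here. Because the column selected on the product of *Il18r1*, a difference in that gene checks the separation and is no finding.

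The receptors of the family share an extracellular part built of immunoglobulin-like domains, and most carry an intracellular TIR domain. A ligand-binding chain takes up the cytokine, an accessory chain joins, and the paired TIR domains recruit MyD88 and the IRAK kinases, which leads to NF-κB. Decoy receptors and soluble binding proteins take up cytokine without passing on a signal. In T cells, IL-18 acts with IL-12 to raise interferon-γ, IL-1 is known for its action on type 17 cells, and IL-33 acts through ST2 on type 2 cells, regulatory T cells, mast cells and basophils.

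All members are protein-coding genes. Of the 10, 6 are receptor genes that stand side by side on the plus strand of mouse chromosome 1 (mm10, 40074079 to 40551705, 477.6 kb), in the order *Il1r2*, *Il1r1*, *Il1rl2*, *Il1rl1*, *Il18r1* and *Il18rap*. The annotated end of *Il1rl1* (40465415) and the annotated start of *Il18r1* (40465552) are only 136 bases apart, and these neighbours differed in opposite directions between the fractions. The sequences in front of *Il18r1*, of its neighbour *Il18rap* and of *Il1r1* are shown because these 3 receptors of the cluster were higher together in the enriched fraction (the window of *Il1r2*, higher as well, overlaps an exon and is not shown). They are the exon-free parts of the windows that RefSeq (GRCm38.p6) places before each start, all on the plus strand and written 5′ to 3′, with a match to the GAS element (the STAT-binding motif TTCNNNGAA) in capitals. The first *Il18r1* stretch fills the gap after *Il1rl1*, and the second lies upstream of an alternative start at 40466006, downstream of the first exon.
Il18r1 chr1:40465419-40465551: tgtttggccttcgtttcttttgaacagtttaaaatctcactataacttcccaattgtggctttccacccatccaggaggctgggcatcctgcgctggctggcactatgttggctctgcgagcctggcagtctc
Il18r1 chr1:40465811-40465969: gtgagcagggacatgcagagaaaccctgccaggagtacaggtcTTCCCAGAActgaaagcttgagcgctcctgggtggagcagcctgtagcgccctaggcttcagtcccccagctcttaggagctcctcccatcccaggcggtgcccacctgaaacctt
Il18rap chr1:40515112-40515361: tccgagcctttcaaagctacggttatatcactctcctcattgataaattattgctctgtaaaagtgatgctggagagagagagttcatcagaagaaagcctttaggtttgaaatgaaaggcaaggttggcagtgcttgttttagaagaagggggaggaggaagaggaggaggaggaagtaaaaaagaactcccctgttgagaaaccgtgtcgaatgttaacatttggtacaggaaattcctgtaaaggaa
Il1r1 chr1:40224830-40225079: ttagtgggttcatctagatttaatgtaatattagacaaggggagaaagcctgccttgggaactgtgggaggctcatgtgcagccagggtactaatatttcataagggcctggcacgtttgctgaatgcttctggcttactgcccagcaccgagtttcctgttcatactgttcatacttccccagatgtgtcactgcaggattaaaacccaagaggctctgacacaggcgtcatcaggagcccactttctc

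RefSeq gave 13 promoter windows for 9 of the 10 members. In the 250 bases before each start, both strands were searched for 4 motifs: GAS (TTCNNNGAA), T-box (GGTGTGA), AP-1 (TGANTCA) and RUNX (TGTGGT). The matches found did not overlap one another. The window before the alternative *Il18r1* start held 2 GAS matches, TTCTGGGAA at bases -219 to -211 and TTCCCAGAA at bases -152 to -144 from that start, of which the first lies in an annotated exon and is not among the bases shown. The only other GAS match was TTCAAGGAA in front of *Il1r2*, at bases -111 to -103. RUNX matches were found in the windows of *Il1rl2*, *Il18* and an alternative start of *Il1rl1*, and no window of a member held the T-box or AP-1 letters. Of 32851 windows of the same length, 7.02% held the GAS letters, 3.33% the T-box, 6.75% the AP-1 and 14.0% the RUNX letters. These matches are descriptions of the sequence and were not tested as sites.

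Between the fractions, 5 of 10 members rose (*Il18r1*, *Il18rap*, *Il1r1*, *Il1r2* and *Il18*), 1 fell (*Il1rl1*) and 4 were not called at an adjusted p of 0.05, beside 14.1% of all 12166 tested genes that rose and 13.7% that fell, and *Il18r1*, the basis of the separation, is one of the 5. Differences across genes were taken on log2(FPKM + 1) with limma, a linear model with a shared estimate of the spread. The fractions did not overlap for 5 members that were higher and 1 that was lower, against 16.4% and 15.9% of all genes tested. The median log2 fold change was 0.66 over the 10 members and -0.02 over all tested genes. When the mouse was kept as a block, the same numbers of members rose and fell, 5 and 1, whereas over all genes 22.2% then rose and 22.7% fell, 44.9% in either direction against 27.8% without the block. In bulk RNA, more cells of a kind and more RNA per cell cannot be told apart for any of these genes.

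**Figure D1:**
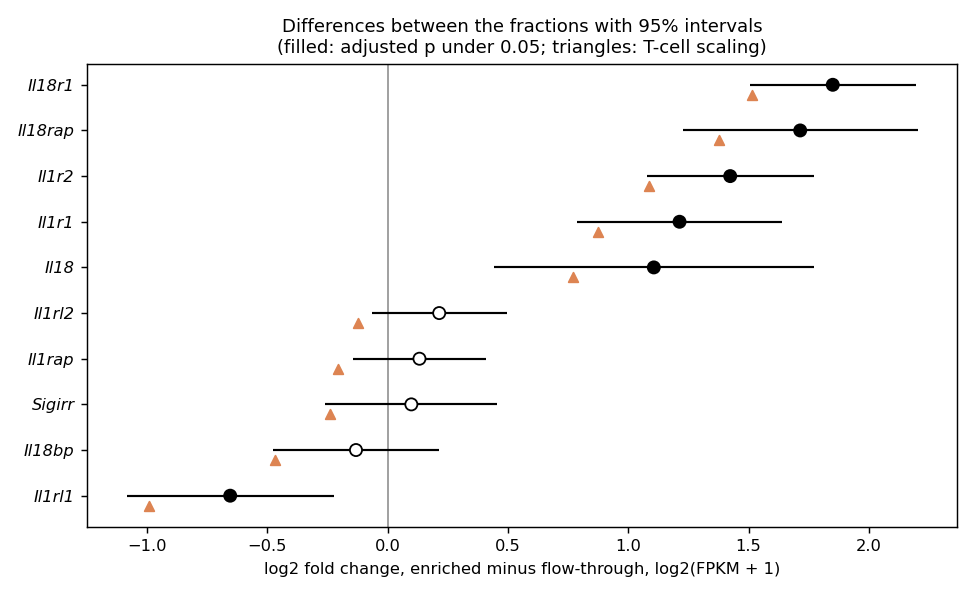
Log2 fold change of log2(FPKM + 1), enriched minus flow-through, for the 10 members (horizontal axis), with 95% intervals of the limma fit, filled circles where the adjusted p was under 0.05, and triangles for the estimate with the libraries scaled to 8 CD8 T-cell identity genes. The triangles lie to the left of every circle, and those of *Il1rl2*, *Il1rap* and *Sigirr* lie below 0.

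The IL-18 receptor pair was the most abundant part of the family in the enriched fraction. *Il18r1* (40465552 to 40500854) encodes IL-18Rα, the chain that binds IL-18. Its level was 22.2, 37.2, 27.7 and 35.3 FPKM in flow-through replicates 1 to 4, and 110.4, 107, 110.3 and 116 FPKM in enriched replicates 1 to 4. The fractions were far apart, and the enriched libraries lay closer together (coefficient of variation 3.49%) than the flow-through libraries (22.7%). The ratio of means was 3.62, and this RNA was present in every flow-through library. *Il18rap* (40515362 to 40551705) encodes the accessory chain IL-18Rβ, which is needed for signalling and was not used for the separation. It was at 6.18, 13.6, 11.1 and 12.9 FPKM in the flow-through and at 31.9, 40.5, 36.1 and 39.4 FPKM after enrichment. No flow-through library reached the lowest enriched library, and replicate 1 was lowest in both fractions. The fitted difference (log2 fold change) was 1.85 (SE 0.15, adjusted p = 0.00029) for *Il18r1* and 1.71 (SE 0.21, adjusted p = 0.0016) for *Il18rap*.

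No difference in the proportion of the chains was detected. Within a library, *Il18rap* stood at 0.353 ± 0.0525 (SD, n = 4) of the *Il18r1* level in the flow-through and at 0.334 ± 0.0375 (SD, n = 4) after enrichment. The log2 difference of this ratio was -0.07, between -0.30 and 0.05 in the single mice, with 2 of 4 mice higher after enrichment (exact two-sided permutation p = 0.60, 0.60 after Benjamini-Hochberg adjustment over the 3 ratios compared). The test had 70 arrangements and no p below 0.0286 was possible. A shift of the ratio that is small beside the spread between the libraries may have been missed.

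**Figure D2:**
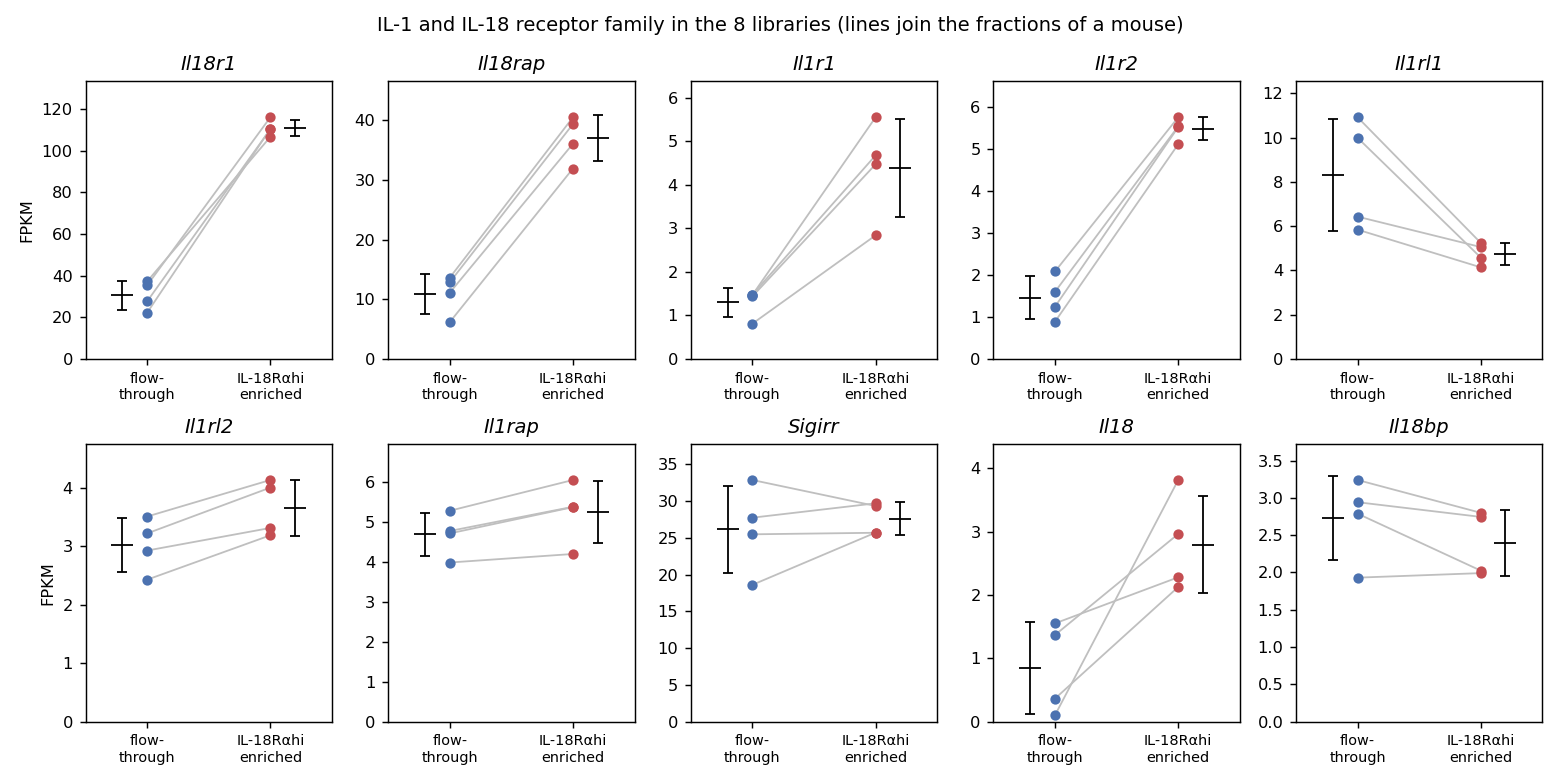
FPKM of each member (vertical axes, from 0, scaled per gene) in the flow-through (blue) and IL-18Rαhi-enriched (red) libraries, with grey lines joining the fractions of a mouse and black bars giving the mean ± SD of 4 libraries. *Il18r1*, *Il18rap*, *Il1r1*, *Il1r2* and *Il18* lie higher and *Il1rl1* lies lower in the enriched fraction without overlap, and the other 4 genes overlap.

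The receptors that bind IL-1 were higher in the enriched fraction as well. *Il1r1* (40225080 to 40317257) encodes the signalling receptor for IL-1α and IL-1β. It was at 0.811, 1.44, 1.48 and 1.47 FPKM in flow-through replicates 1 to 4 and at 2.84, 4.47, 4.67 and 5.55 FPKM in enriched replicates 1 to 4. Both series had their lowest value in replicate 1, and the fractions did not overlap. *Il1r2* (40074079 to 40125231) encodes the decoy receptor, which lacks a TIR domain and takes up IL-1 without signalling. Its values were 0.891, 2.09, 1.60 and 1.25 FPKM in the flow-through and 5.12, 5.76, 5.55 and 5.53 FPKM after enrichment. The enriched libraries were close to one another and all above the flow-through. The log2 fold change was 1.21 (SE 0.19, adjusted p = 0.0033) for *Il1r1* and 1.42 (SE 0.15, adjusted p = 0.00094) for *Il1r2*, with ratios of means of 3.37 and 3.77.

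For the proportion of decoy to signalling receptor no difference was detected either. The ratio of *Il1r2* to *Il1r1* was 1.12 ± 0.249 (SD, n = 4) in the flow-through and 1.32 ± 0.345 (SD, n = 4) after enrichment. Its log2 difference was 0.23, between -0.17 and 0.72 in the single mice, and it was higher in 3 of 4 mice (exact permutation p = 0.43, adjusted 0.60). Both genes are sparse, and *Il1r2* rested on about 20.6 to 138 fragments a library.

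No difference was detected for the accessory chain that these receptors share. *Il1rap* encodes IL-1RAcP, which pairs with the IL-1, IL-33 and IL-36 receptors, and lies apart from the cluster on chromosome 16 (26581704 to 26730117). It was at 3.98, 5.27, 4.77 and 4.70 FPKM in the flow-through and at 4.19, 6.04, 5.37 and 5.36 FPKM after enrichment. The fractions overlapped, although each mouse had slightly more in its enriched library. The log2 fold change was 0.13 (95% interval -0.14 to 0.41, adjusted p = 0.44). An antisense gene, *Gm20319*, overlaps it and was listed at 0.636 to 2.09 FPKM. The accessory chain was above *Il1r1* in every flow-through library, and the ranges of both genes overlapped after enrichment.

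*Il1rl1* was the member that fell. It encodes ST2, the receptor for IL-33 (40429570 to 40465415), and lies directly upstream of *Il18r1*. Its level was 10.9, 5.84, 9.98 and 6.43 FPKM in flow-through replicates 1 to 4 and 5.24, 4.14, 4.58 and 5.05 FPKM in enriched replicates 1 to 4. Replicates 1 and 3 of the flow-through were high, replicates 2 and 4 were just above the highest enriched library, and all 4 mice had less in the enriched library. The log2 fold change was -0.65 (95% interval -1.08 to -0.22, SE 0.19, adjusted p = 0.034), the largest adjusted p of the family's 6 calls. With the mouse as a block its adjusted p was 0.0099, in a fit that called 44.9% of all genes against 27.8% without the block. The call was lost without flow-through replicate 1 (adjusted p = 0.056) or 3 (0.094) and without enriched replicate 1 (0.051), 2 (0.091), 3 (0.079) or 4 (0.067), and with the libraries scaled to CD8 T-cell identity genes (log2 fold change -0.99, adjusted p = 0.080), while the direction stayed the same in each of these.

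Markers of other cells moved beside *Il1rl1*, and their part in its level was not tested. Of 6 erythroid markers 2 fell, *Car1* (carbonic anhydrase 1) and *Tfr2* (transferrin receptor 2), and the summed erythroid level was 733 to 1796 FPKM in the flow-through and 126 to 545 FPKM after enrichment. *Tfr2* was at 90.6, 28.3, 50.5 and 37.5 FPKM in flow-through replicates 1 to 4, high in the 2 libraries where *Il1rl1* was high, and at 18.3, 5.95, 14.0 and 5.39 FPKM in the enriched libraries. Mast cells and basophils carry ST2. Of their 8 markers 7 were tested, 1 rose (*Mcpt8*, a basophil protease, log2 fold change 1.45, SE 0.38, adjusted p = 0.023, 0.052 with T-cell scaling) and 1 fell (*Gata2*, a transcription factor of these cells and of early blood cells, -0.82, SE 0.21, adjusted p = 0.023). *Gata2* was at 13.0, 18.9, 18.6 and 22.7 FPKM in the flow-through and at 6.54, 12.9, 10.0 and 10.5 FPKM after enrichment, and its flow-through order was not that of *Il1rl1*. *Tpsb2*, a mast-cell tryptase, reached at most 0.137 FPKM.

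**Figure D3:**
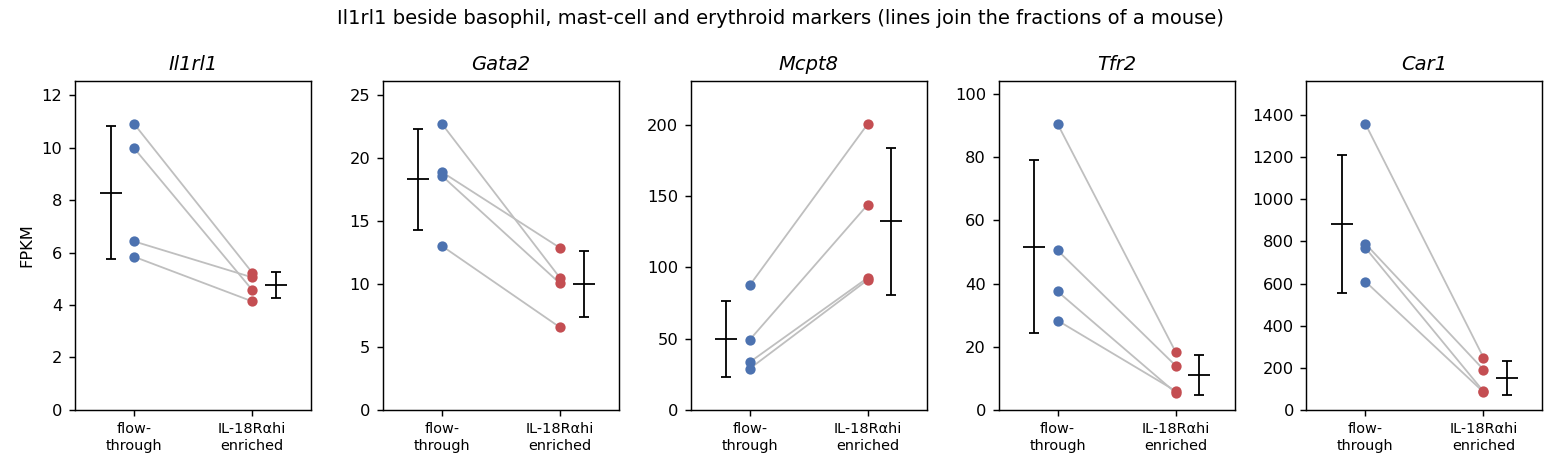
FPKM (vertical axes, from 0, scaled per gene) of *Il1rl1*, of the mast-cell and basophil markers *Gata2* and *Mcpt8* and of the erythroid markers *Tfr2* and *Car1* in flow-through (blue) and enriched (red) libraries, lines joining a mouse, black bars the mean ± SD of 4. *Il1rl1*, *Gata2*, *Tfr2* and *Car1* are lower in all 4 enriched libraries and *Mcpt8* is higher in each mouse.

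For the remaining receptors no difference was detected. *Il1rl2* (40324610 to 40367562) encodes the receptor of the IL-36 cytokines and lies within the cluster between *Il1r1* and *Il1rl1*. It was at 2.93, 3.22, 3.51 and 2.43 FPKM in the flow-through and at 3.31, 4.0, 4.13 and 3.19 FPKM after enrichment. Each of the 4 mice had slightly more after enrichment, but the ranges overlapped (log2 fold change 0.21, 95% interval -0.07 to 0.49, adjusted p = 0.22). *Sigirr* encodes an inhibitory member that dampens IL-1 and Toll-like receptor signals, on the minus strand of chromosome 7 (141091175 to 141100572). Its level was 18.6, 27.8, 25.5 and 32.9 FPKM in the flow-through and 25.7, 29.7, 25.7 and 29.3 FPKM after enrichment. Flow-through replicate 1 was the lowest and flow-through replicate 4 the highest of the 8, so the enriched values lay inside the range of the flow-through (log2 fold change 0.10, 95% interval -0.26 to 0.46, adjusted p = 0.66). The sign of this difference turned to -0.049 without flow-through replicate 1, and with T-cell scaling, which lowers every gene by the same amount, the values of *Il1rl2* (-0.12), *Il1rap* (-0.21) and *Sigirr* (-0.24) were below 0. Relative to the median of all genes they were 0.23, 0.15 and 0.12 under either scaling.

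The ligand *Il18* rose, and for its binding protein no difference was detected. *Il18* (chromosome 9, 50554827 to 50581840) was at 0.365, 1.37, 1.55 and 0.103 FPKM in the flow-through and at 2.13, 2.96, 2.28 and 3.81 FPKM after enrichment. All enriched libraries were above all flow-through libraries, and replicate 4 held both the lowest and the highest value. The log2 fold change was 1.11 (SE 0.29, adjusted p = 0.024), and it missed the threshold without enriched replicate 2 (adjusted p = 0.066) or 4 (0.069) and with T-cell scaling (0.77, adjusted p = 0.12). The flow-through mean of *Il18* (0.847 FPKM) was under the filter of 1 FPKM, so it entered the test only through the enriched fraction (2.79 FPKM). Without the filter its adjusted p was 0.051. Depth limits this gene, since its values stood for about 1.34 to 49.7 fragments a library. *Il18* overlaps *Bco2* and *Tex12* on the opposite strand, and the counting was not stated to use strand, but *Tex12* was listed at 0 in all libraries and *Bco2* at 0.146 to 0.673 FPKM. Monocytes and macrophages make IL-18 and 3 of the 7 tested markers of theirs rose too (*Lyz2*, *Adgre1* and *C1qa*), beside 14.1% of all tested genes. The summed level of the whole list was 106 to 372 FPKM in the flow-through and 353 to 848 FPKM after enrichment, with overlapping ranges. *Lyz2* made up most of that sum, with means of 197 and 506 FPKM. *Adgre1* and *C1qa* had flow-through means of 0.805 and 0.322 FPKM and entered the test only through the enriched fraction. With T-cell scaling none of the monocyte and macrophage markers passed, and the part of such cells in the *Il18* level was not tested.

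*Il18bp* (chromosome 7, 102014885 to 102018690, minus strand) encodes a secreted protein that binds IL-18 and keeps it from its receptor. It was at 1.93, 2.94, 2.79 and 3.24 FPKM in the flow-through and at 1.99, 2.74, 2.02 and 2.80 FPKM after enrichment, which overlapped (log2 fold change -0.13, 95% interval -0.48 to 0.21, adjusted p = 0.54). Within a library, the ratio of *Il18bp* to *Il18* was 5.30, 2.15, 1.80 and 31.5 in the flow-through and 0.937, 0.927, 0.889 and 0.734 after enrichment. The binding protein was thus the more abundant RNA in all 4 flow-through libraries and the less abundant one in all 4 enriched libraries. The log2 difference was -2.54, lower in 4 of 4 mice. The exact permutation p was 0.029, the smallest this test allows, and 0.086 after adjustment over the 3 ratios. A single ratio at that smallest p cannot pass this adjustment when the other ratios have high p-values. The permutation does not keep the fractions of a mouse together. By sign flip over the 4 mice p was 0.125, the smallest possible there. Without flow-through replicate 4, whose *Il18* value stood for about 1.34 fragments, the log2 difference was -1.66. *Il18bp* overlaps *Numa1* on the opposite strand by 80 bases, a gene at 44.99 to 63.2 FPKM.

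**Figure D4:**
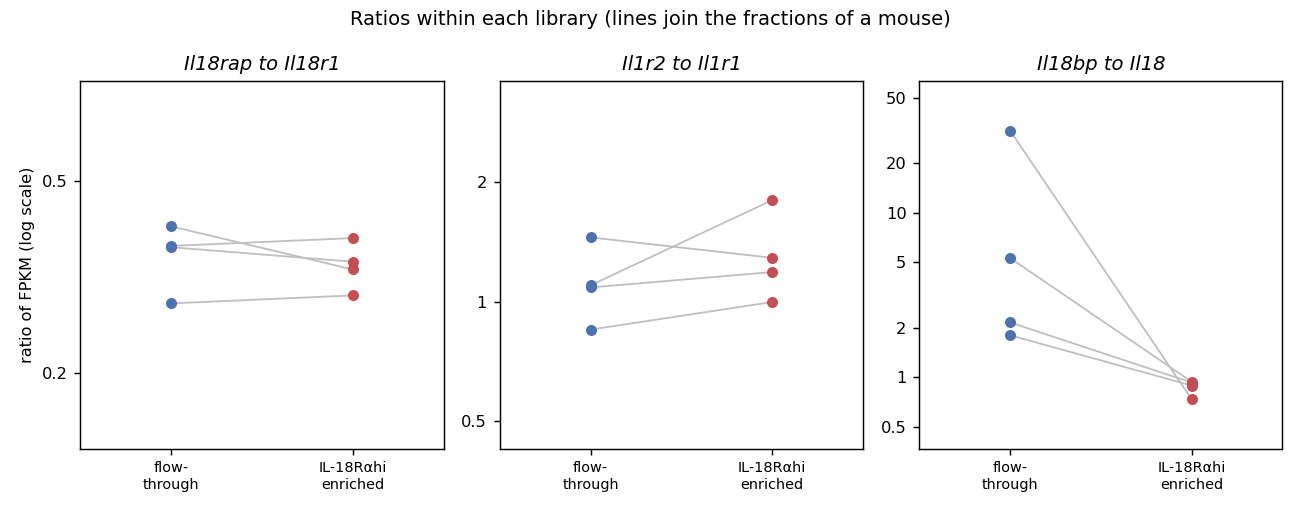
Ratio of FPKM of *Il18rap* to *Il18r1*, *Il1r2* to *Il1r1* and *Il18bp* to *Il18* in each library (vertical axes on a log scale, set per panel), flow-through blue and enriched red, lines joining the fractions of a mouse. The first 2 ratios overlap between the fractions, while *Il18bp* to *Il18* is at least 1.80 in the flow-through and at most 0.937 after enrichment.

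The 8 identity genes (*Cd3d*, *Cd3e*, *Cd3g*, *Cd247*, *Cd8a*, *Cd8b1*, *Lck* and *Cd2*) summed to 1337 to 2548 FPKM in the flow-through and to 2542 to 2724 FPKM after enrichment, with flow-through replicate 1 the lowest, and none of the 8 passed the test (*Cd2* did with the mouse as a block, 0.58, adjusted p = 0.0305). *Cd8a* was at 179, 345, 297 and 336 FPKM in the flow-through and at 361 to 385 FPKM in the enriched libraries, so the labelled cell type was present in all. With the libraries scaled to these genes the median over all tested genes was -0.36 (log2 fold change), and 29.6% of the calls over all genes were then higher against 50.8% before. The calls themselves went from 1720 higher and 1664 lower to 351 higher and 834 lower. A call lost with this scaling is thus common over all genes and not particular to the genes named here. Relative to that median, *Il18r1* was at 1.87, *Il18rap* at 1.73, *Il1r2* at 1.44, *Il1r1* at 1.23, *Il18* at 1.12 and *Il1rl1* at -0.64. The first 4 of these passed the test under either scaling.

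Flow-through replicate 1, which had the least T-cell RNA, was also the lowest flow-through library for 7 of the 10 members, and enriched replicate 1 was the lowest of its fraction for 6 of 10. Leaving out flow-through replicate 1 kept the calls of *Il18r1*, *Il18rap*, *Il1r1*, *Il1r2* and *Il18*. The libraries had about 14675000 to 17169000 fragments as estimated from the smallest FPKM steps, with no split between the fractions, and 11706 to 12288 genes at 1 FPKM or more.

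Taken by position, the cluster on chromosome 1 held genes that rose, fell and showed no difference side by side. Of its 6 receptor genes, 4 rose (*Il1r2*, *Il1r1*, *Il18r1* and *Il18rap*), 1 fell (*Il1rl1*) and *Il1rl2* was not called. Over all tested genes 14.1% rose and 13.7% fell, and *Il18r1*, among the 4, is the gene whose product the column selected on. The genes that rose were thus interrupted by a pair that did not, with gaps of 7352 bases between *Il1r1* and *Il1rl2* and 14507 bases between *Il18r1* and *Il18rap*. Of 8 non-receptor genes around the cluster only 2 were expressed enough to be tested. *Rnf149*, a ubiquitin ligase gene, rose (23.0 ± 2.11 to 31.3 ± 3.09 FPKM, SD, n = 4, log2 fold change 0.43, SE 0.10, adjusted p = 0.015), and *Map4k4*, a kinase gene, was at 45.5 ± 12.6 and 57.2 ± 5.44 FPKM (log2 fold change 0.36, adjusted p = 0.19). With T-cell scaling *Rnf149* was no longer called (0.09, adjusted p = 0.74).

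**Figure D5:**
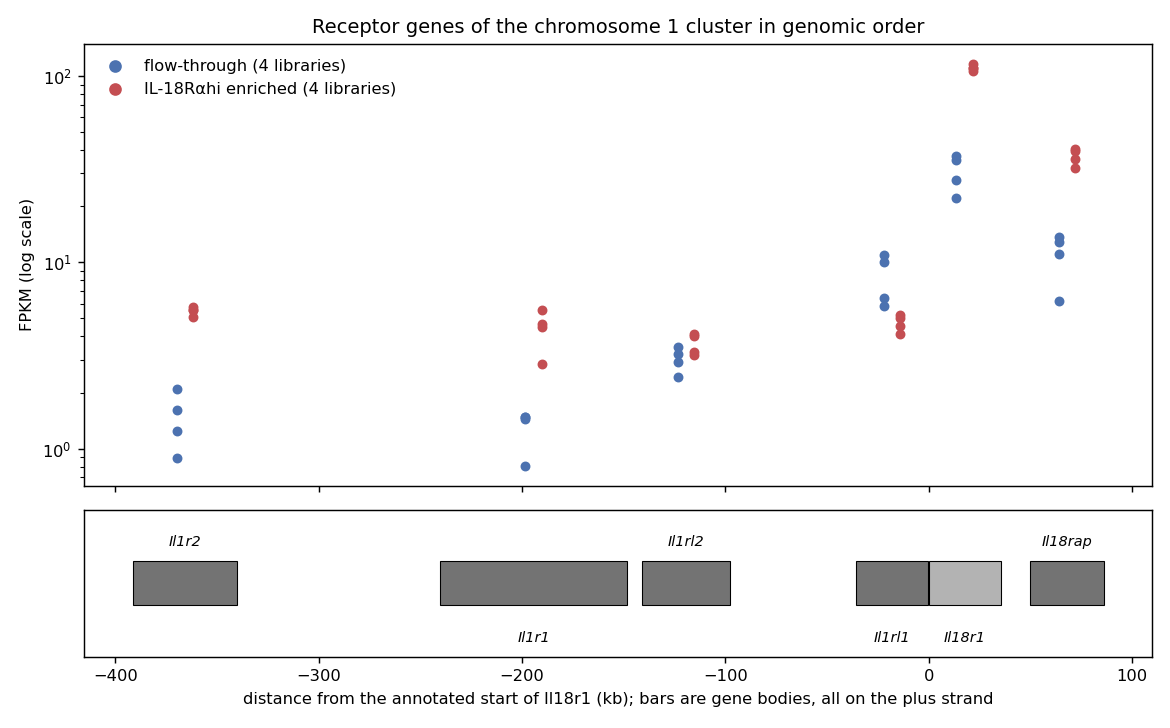
FPKM (log scale) of the 6 receptor genes of the chromosome 1 cluster in the 4 flow-through (blue) and 4 enriched (red) libraries, placed at the middle of each gene body by its distance in kb from the annotated start of *Il18r1*. *Il1rl1* and *Il18r1* (the lighter bar), which adjoin, lie on opposite sides, with *Il1rl1* lower and *Il18r1* higher in all enriched libraries.

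The order of the levels differed between the fractions. In the flow-through *Il18r1* (30.6 ± 6.96 FPKM, SD, n = 4) and *Sigirr* (26.2 ± 5.92) led, and their ranges overlapped, although *Il18r1* was the higher in each of the 4 libraries. *Il18rap* (10.9 ± 3.35) and *Il1rl1* (8.29 ± 2.53) followed with overlapping ranges, then *Il1rap* (4.68 ± 0.532), *Il1rl2* (3.02 ± 0.461), *Il18bp* (2.72 ± 0.562), *Il1r2* (1.46 ± 0.511), *Il1r1* (1.30 ± 0.326) and *Il18* (0.847 ± 0.720), where neighbours from *Il1rl2* on overlapped. In the enriched fraction *Il18r1* (110.8 ± 3.87), *Il18rap* (37.0 ± 3.86) and *Sigirr* (27.6 ± 2.21) stood apart from one another. *Il1r2* (5.49 ± 0.269), *Il1rap* (5.24 ± 0.768), *Il1rl1* (4.75 ± 0.495), *Il1r1* (4.38 ± 1.13), *Il1rl2* (3.66 ± 0.478), *Il18* (2.79 ± 0.770) and *Il18bp* (2.39 ± 0.442) came below without a gap between neighbours. The decoy *Il1r2* thus moved from rank 8 to rank 4 and *Il1rl1* from rank 4 to rank 6. Of the summed FPKM of the 8 receptor genes, the IL-18 receptor pair made up 47.5 ± 4.45% in the flow-through and 74.3 ± 0.953% after enrichment, *Sigirr* 30.1 ± 2.57% and 13.9 ± 0.704%, and *Il1rl1* 10.2 ± 4.86% and 2.39 ± 0.296%. These shares contain *Il18r1* and therefore the effect of the separation itself.

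By the criteria the study set for genes of the enriched fraction, using the p and adjusted p of the limma fit, *Il18r1* and *Il1r2* met all of them. These criteria ask for at least 5 FPKM, a ratio of at least 3, every enriched library above the flow-through mean plus 3 SD, and a p and an adjusted p below 0.001. *Il18rap* met all but the adjusted p (0.0016), and met that too with the mouse as a block (0.00028). *Il1r1* had the ratio and the spread but a mean under 5 FPKM, and *Il18* had the ratio alone.

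The other ligands of the family were scarce. Of 9 genes for other ligands and antagonists, 4 were listed under older symbols and were matched through RefSeq synonyms. Only *Il1b*, the inflammatory cytokine IL-1β, was tested, and it rose from 1.57 ± 0.25 to 3.64 ± 1.01 FPKM (SD, n = 4, log2 fold change 0.83, SE 0.17, adjusted p = 0.0097), a call lost with T-cell scaling (0.49, adjusted p = 0.17). *Il36a*, *Il36b*, *Il36rn* and *Il1f10* were listed at 0 in all 8 libraries, and *Il33*, the ligand of ST2, reached at most 0.0238 FPKM. *Il1a*, *Il1rn* and *Il36g* had means of at most 0.344 FPKM in either fraction. The brain-type relatives *Il1rapl1* and *Il1rapl2* were at or near 0 (at most 0.0216 FPKM).

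Genes that process the IL-1 family cytokines were higher in part. Of 8 such genes 6 were tested and 3 rose, with none lower, beside 14.1% of all tested genes that rose and 13.7% that fell. The median log2 fold change was 0.78 for the 6 and -0.02 for all genes. *Casp1*, the protease that cleaves pro-IL-1β and pro-IL-18, was at 10.5, 25.2, 19.1 and 20.04 FPKM in the flow-through and at 40.5, 42.4, 44.8 and 44.8 FPKM after enrichment (log2 fold change 1.22, SE 0.22, adjusted p = 0.0061). *Pycard*, the inflammasome adaptor ASC, was at 68.6 to 99.8 and 153 to 196 FPKM (0.95, SE 0.13, adjusted p = 0.0023), and *Casp4*, the caspase-11 gene, at 6.47 to 12 and 17.1 to 20.5 FPKM (0.94, SE 0.18, adjusted p = 0.0070). For these 3 the fractions did not overlap, as for 16.4% of all tested genes that were higher without overlap. *Nlrp3*, a sensor of the inflammasome, was at 0.642 ± 0.423 and 1.53 ± 0.546 FPKM (adjusted p = 0.069, and 0.0087 with the mouse as a block). Its flow-through mean was under the filter of 1 FPKM, so *Nlrp3* entered the test and the median above only through the enriched fraction. *Aim2* and *Gsdmd* did not pass. The 3 genes that rose also did so with T-cell scaling (*Casp1* 0.89, adjusted p = 0.013, *Pycard* 0.61, 0.045, *Casp4* 0.60, 0.046), where 351 of all 12166 tested genes rose.

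Of the 12 signalling adaptors and kinases below the receptors, all were tested, 2 rose and 1 fell, and their median log2 fold change was 0.14. These counts are near the shares over all genes (14.1% and 13.7%) and give no result about the group. With T-cell scaling none of the 12 passed and the median was -0.20. *Myd88*, the adaptor common to the family, was at 40.7 ± 3.42 and 57.2 ± 4.07 FPKM (log2 fold change 0.48, SE 0.09, adjusted p = 0.0059), and *Tab2*, a partner of the kinase TAK1, at 44.2 ± 2.84 and 58.5 ± 2.76 FPKM (0.40, SE 0.07, adjusted p = 0.0064). *Tab1*, another partner of TAK1, fell from 14.6 ± 1.85 to 11.5 ± 0.556 FPKM (-0.31, SE 0.10, adjusted p = 0.041). The kinase genes *Irak1*, *Irak2*, *Irak3* and *Irak4* and the ubiquitin ligase gene *Traf6* did not pass the test, while with the mouse as a block *Irak4* rose (0.27, adjusted p = 0.027) and *Irak1* fell (-0.21, adjusted p = 0.026).

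Several lymphoid and myeloid marker lists moved with the receptors in the enriched fraction. The values were as follows, beside 14.1% of all tested genes that rose and 13.7% that fell, and their part in the levels of the family was not tested. Of the NK-cell markers 6 of 7 tested rose (*Ncr1*, *Klrb1c*, *Klra8*, *Klra9*, *Klre1* and *Gzma*), from a summed 22.1 to 45.1 to a summed 89.5 to 192 FPKM. Regulatory T-cell markers rose in 4 of 5 (*Foxp3*, *Cd4*, *Ctla4* and *Il2ra*), with sums of 9.85 to 27.4 and 34.5 to 84.4 FPKM. Both kinds of cell are known to carry receptors of this family, NK cells the IL-18 receptor and regulatory T cells ST2 or the IL-1 decoy. *Klra8*, *Klra9* and *Cd4* had flow-through means of 0.290, 0.585 and 0.662 FPKM, so they entered the test only through the enriched fraction. With T-cell scaling 4 NK-cell and 2 regulatory T-cell markers still rose, beside 351 of all 12166 tested genes.

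Dendritic-cell markers rose in 6 of 8 (*Itgax*, *Flt3*, *Xcr1*, *Clec9a*, *Siglech* and *Cd209a*) and fell in 1, *Ccr7*, which naive T cells express as well, and the summed level was 74.0 to 143 FPKM in the flow-through and 74.4 to 120 FPKM after enrichment. *Xcr1*, at a flow-through mean of 0.688 FPKM, entered the test only through the enriched fraction. *Ccr7* made up most of the flow-through sum. Without *Ccr7* the other 7 genes summed to 15.6 to 27 FPKM in the flow-through and 37.9 to 79.6 FPKM after enrichment. Leaving out the only marker called lower was a choice made after the values were seen. It favours higher sums after enrichment, so nothing is drawn from these sums. Type 2 markers had 2 of 6 tested, of which *Gata3* rose (8.0, 15.01, 11.8 and 15.9 to 30.6, 32.6, 29.9 and 35.0 FPKM, log2 fold change 1.31, SE 0.19, adjusted p = 0.0024) and *Il4* did not pass. *Il5* and *Il13* had means of at most 0.518 FPKM in either fraction. Neutrophils carry the decoy IL-1 receptor, and of their markers none of the 6 tested passed, with sums of 31.8 to 174 and 80.5 to 710 FPKM and *S100a8* and *S100a9* the most abundant. With the mouse as a block, 2 neutrophil markers rose (*S100a8*, adjusted p = 0.0035, and *Csf3r*, 0.0069). The block also raised the number higher to 6 of 7 for monocytes and macrophages and to 4 of 7 for mast cells and basophils, and the number lower to 4 of 6 for erythroid cells. Among the monocyte and macrophage markers higher with the block, *Adgre1*, *Fcgr1*, *C1qa* and *C1qb* had flow-through means of 0.805, 0.888, 0.322 and 0.428 FPKM. These entered the test only through the enriched fraction. Over all tested genes the block raised the share higher from 14.1% to 22.2% and the share lower from 13.7% to 22.7%, so more calls with the block are general. Of 5 tested B-cell markers only *Cd22* rose (0.98, SE 0.19, adjusted p = 0.0076), with sums of 24.4 to 62.9 and 40.4 to 81.9 FPKM.

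Among 9328 other genes whose mean reached 5 FPKM, the pattern over the 8 libraries most like that of *Il18r1* was shown by *Lgals3* (galectin-3), *Sytl2* (synaptotagmin-like protein), *Ccl1* (a chemokine), *S100a6* (a calcium-binding protein) and *Tbx21* (the transcription factor T-bet). Likeness was the root mean square difference in log2(FPKM + 1), each gene centred on its own mean, and was 0.09, 0.11, 0.12, 0.12 and 0.13 for these 5. Their mean FPKM in flow-through and enriched fraction was 80.0 and 289 for *Lgals3*, 7.09 and 25.8 for *Sytl2*, 2.102 and 10.04 for *Ccl1*, 169 and 627 for *S100a6* and 16.01 and 53.2 for *Tbx21*. *Il18rap* stood at rank 19 with 0.17, *Sigirr* at rank 2896 with 0.88 and *Il1rl1* at rank 8782 with 1.33. *Ccl1* reached the mean of 5 FPKM only through the enriched fraction. The closest gene by place, *Il1rl1*, was thus among those least like *Il18r1* in this pattern. The measure follows the difference between the fractions, on which *Il18r1* was selected, so a gene that fell ranks low by it.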

How the data were processed

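The authors made stranded mRNA libraries (TruSeq, paired ends, NovaSeq), removed low-quality reads with in-house scripts, aligned to mm10 with TopHat and deposited FPKM per gene from Cufflinks 2.1.1 with corrections for multi-mapped reads and fragment bias. No use of strand was stated, so overlapping genes on opposite strands may share reads, and the annotation release was not given in the sources used here. Depth was estimated from the smallest FPKM steps.

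The members and lists were chosen with earlier results of these data known. Genes whose mean over the libraries reached 1 FPKM were compared on log2(FPKM + 1) with limma 3.58.1 in R 4.3.3 (trended variance, Benjamini-Hochberg over all 12166 genes, threshold 0.05). A fold change on this scale understates that of low genes. Ratios were compared by exact permutation (scipy 1.17.1). Named were the members, list genes past the threshold (where none passed, the 2 most abundant) and the 5 genes most like *Il18r1*. *Il33* and other list genes outside that rule were named after their values were seen. 1 marker list is not reported here.

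The fractions of a mouse share a replicate number, and the deviations of same-numbered libraries from their group means correlated at 0.66, 0.59, 0.31 and 0.47. A block for the mouse was therefore an alternative, as were other pseudocounts, filters and scalings and leaving out each library. The fits were tested on simulated data. Coordinates are from GENCODE M21 (GRCm38) and sequences from RefSeq (GRCm38.p6). The p-values measure the spread between these libraries.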

Additional observations from a re-analysis of the deposited data

Results flagged for a closer look

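*Il1r1* in flow-through replicate 1 was at 0.811 FPKM, while the other 3 flow-through libraries lay between 1.44 and 1.48 FPKM, a gap wide enough against the range of the 4 values to mark this library as standing apart. Of 20 groups of 4 values examined (10 members in 2 fractions) this was the 1 such case, and chance gives about 1 in 20. *Cd8a* was lowest in the same library (179 FPKM).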

How the results depend on the processing

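*Il18r1*, *Il18rap*, *Il1r1* and *Il1r2* kept direction and call in each alternative in which they were tested. With the replicate block 5 members rose and 1 fell, and no call among the members changed. The number of members that rose was 2 with a filter of 5 FPKM, which left only *Il18r1*, *Il18rap*, *Il1rl1* and *Sigirr* of the family to be tested, and 4 to 5 when a library was left out. The number that fell was 0 without a filter, on the TPM scale and with T-cell scaling, and 0 to 1 when a library was left out. In these cases *Il1rl1* missed the threshold (adjusted p = 0.070 without a filter, 0.051 on the TPM scale), and *Il18* did so without a filter (0.051). The signs of *Il1rl2* (-0.12), *Il1rap* (-0.21) and *Sigirr* (-0.24) turned with T-cell scaling, which lowers every gene by the same amount and left them at 0.23, 0.15 and 0.12 above the median of all genes, as before, and that of *Sigirr*, from -0.049 to 0.21 when a library was left out, turned without flow-through replicate 1 (-0.049); none of these was called. For the other changes the cause was not tested. Log2 differences of the ratios ranged from -0.18 to 0.00 (*Il18rap* to *Il18r1*), from 0.06 to 0.36 (*Il1r2* to *Il1r1*) and from -3.03 to -1.66 (*Il18bp* to *Il18*) when a library was left out, and by sign flip over the 4 mice, where no p below 0.125 is possible, the p-values were 0.625, 0.375 and 0.125. Over all genes 1124 to 1802 rose and 940 to 1781 fell when a library was left out, lowest without flow-through replicate 3 (1155 and 940) and enriched replicates 2 (1124 and 956) and 4 (1129 and 973), against 1720 and 1664 with all. Values near 1 FPKM, as for *Il18*, *Il1r1* and *Il1r2*, are limited by depth.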
